A study of Mus musculus with 9 samples.

Results

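Potassium channel genes were taken as every gene symbol of the count table that starts with Kcn and has at least 1 count. The rule gave 80 of the 22299 genes with a count. By name they fall into 21 subfamilies. The symbols code for 66 pore-forming subunits, of which 8 belong to the silent modifier subfamilies Kcnf, Kcng, Kcns and Kcnv, and for 14 auxiliary or regulatory proteins. Apart from the need for 1 count, no measured value chose the genes.

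Potassium channels let potassium leave a neuron, which sets its resting potential, ends its action potentials and limits how fast it fires. Voltage-gated subunits (such as Kcna, Kcnc, Kcnd and Kcnh) open on depolarization. Inward rectifiers (Kcnj) and tandem-pore channels (Kcnk) act near rest, and the Kcnma, Kcnn and Kcnt channels answer to intracellular calcium or sodium. Kcnip and Kcnab proteins bind to the cytoplasmic side of voltage-gated channels and change their gating and traffic. In the central amygdala, neurons differ in how late and how regularly they fire, and these channels shape such patterns.

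The data are single-cell RNA-seq counts from wild-type mice of the B6 strain, for cells microdissected out of their central amygdala, a nucleus in which most neurons are GABAergic. The 9 samples form 1 group with no treatment, and the study examined the transcriptomes of its inhibitory neurons. The labels say that cells were pooled over brain slices and give no age, and they do not say whether each sample is a different animal. A p-value here therefore measures the spread among these samples and no more. All groups below are therefore classes of cells within the same 9 samples.

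A cell was called positive for a gene at 1 count or more per 10000 of its gene counts, and inhibitory when positive for Gad1, Gad2 or Slc32a1 (GABA synthesis and vesicular GABA transport) and for neither Slc17a7 nor Slc17a6 (vesicular glutamate transport). This kept 810 of 829 cells. Of them 769 were positive for Gad2, 726 for Gad1 and only 135 (16.7%) for Slc32a1. The samples held 82 to 95 such cells and 8522750 to 22730327 gene counts over all their cells, and no cell had the same counts as another. The 96 plate wells recur from sample to sample, so a well is no identity. The classes were 343 Prkcd-positive and 467 Prkcd-negative cells, 251 Cartpt-positive and 559 Cartpt-negative cells, 148 Sst-positive and 662 Sst-negative cells, 76 Isl1-positive and 734 Isl1-negative cells, 116 Nr2f2-positive and 694 Nr2f2-negative cells, and 167 Foxp1-positive and 643 Foxp1-negative cells. Prkcd codes for a protein kinase C, Cartpt and Sst for neuropeptides, and Isl1, Nr2f2 and Foxp1 for transcription factors. The classes overlap: 81.5% of Cartpt-positive cells and 25.2% of Cartpt-negative cells were also Prkcd-positive (mean over samples).

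A pair of promoters is shown because Kcnip2 and Kcnh7 had the smallest adjusted p among the genes that were higher and lower in Prkcd-positive cells. Each runs from 250 bases before to 50 bases after the gene's start in RefSeq on GRCm38.p6, 5′ to 3′ on the gene's own strand. Capitals mark the GC box GGGCGG or its reverse complement. The Kcnip2 window is chr19:45816014-45816313 and the Kcnh7 window is chr2:63184238-63184537, both on the minus strand.
Kcnip2: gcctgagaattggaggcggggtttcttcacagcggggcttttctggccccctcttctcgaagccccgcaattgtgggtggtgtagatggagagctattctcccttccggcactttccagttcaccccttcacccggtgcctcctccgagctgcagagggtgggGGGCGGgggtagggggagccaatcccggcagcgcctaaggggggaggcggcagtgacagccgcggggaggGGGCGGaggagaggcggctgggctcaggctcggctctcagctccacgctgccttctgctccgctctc
Kcnh7: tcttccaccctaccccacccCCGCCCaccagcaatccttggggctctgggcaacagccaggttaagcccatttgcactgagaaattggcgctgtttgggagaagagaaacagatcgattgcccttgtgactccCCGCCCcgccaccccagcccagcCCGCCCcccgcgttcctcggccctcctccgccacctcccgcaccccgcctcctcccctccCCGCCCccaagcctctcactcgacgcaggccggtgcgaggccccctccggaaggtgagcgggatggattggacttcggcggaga
The Kcnip2 window holds 2 matches and the Kcnh7 window 4. RefSeq windows were matched by symbol for 58 of the 80 genes. A gene was counted once, as holding a motif if any of its windows did. The GC box was held on either strand by 39 of the 58 genes (67.2%). Of all 27025 genes with a window, which include genes of every kind, 10324 held it (38.2%). Among the genes lower in Prkcd-positive cells, 8 of the 10 with a window held it, and among those higher, 1 of 3. The TATA box TATAAA was found for 5 of the 58 genes (8.62%), against 15.7% of all genes with a window. The cAMP response element TGACGTCA was found for 0 of 58, against 2.03% of all genes with a window. These are matches of letters only.

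Together the 80 genes took 20.5 ± 0.971 of every 10000 gene counts in inhibitory cells (SD, n = 9 samples; range 19.3 to 22.2). Counts were not divided by transcript length, so genes and subfamilies are not ranked by level here. Among voltage-gated subfamilies, the summed level was 2.08 ± 0.209 per 10000 for Kcna, 1.37 ± 0.280 for Kcnc, 1.53 ± 0.250 for Kcnd and 0.979 ± 0.208 for Kcnh. Kcnj summed to 1.26 ± 0.120, Kcnk to 1.58 ± 0.124, Kcnma to 1.01 ± 0.156, Kcnt to 0.883 ± 0.214 and Kcnn to 0.142 ± 0.0640. The auxiliary families summed to 3.32 ± 0.275 for Kcnip and 1.85 ± 0.366 for Kcnab. Detection was uneven: 9 genes had a count in at least 50% of inhibitory cells and 33 had one in under 5%.

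Detection differed among the members of a subfamily. Kcnq3, a subunit of the M-type current that brakes repetitive firing, had a count in 2.96% of cells. Kcna1, a low-threshold delayed rectifier, had a count in 62.1% of cells and Kcna2 in 0.988%. Kcnip2, a calcium-binding partner of the Kcnd channels, had one in 81.6%, the fast-spiking channel gene Kcnc1 in 60.6%, the large-conductance calcium-activated channel gene Kcnma1 in 57.9% and the sodium-activated channel gene Kcnt1 in 55.7%. Kcnk1, a tandem-pore leak channel, reached 52.1%. By contrast Kcnj6, a G-protein-gated inward rectifier, had a count in 2.72% of cells and the tandem-pore acid-sensitive channel gene Kcnk9 in 0.247%. How the counting treated near-identical copies and strand is not given in these sources, and its part in these shares was not tested.

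**Figure D1:**
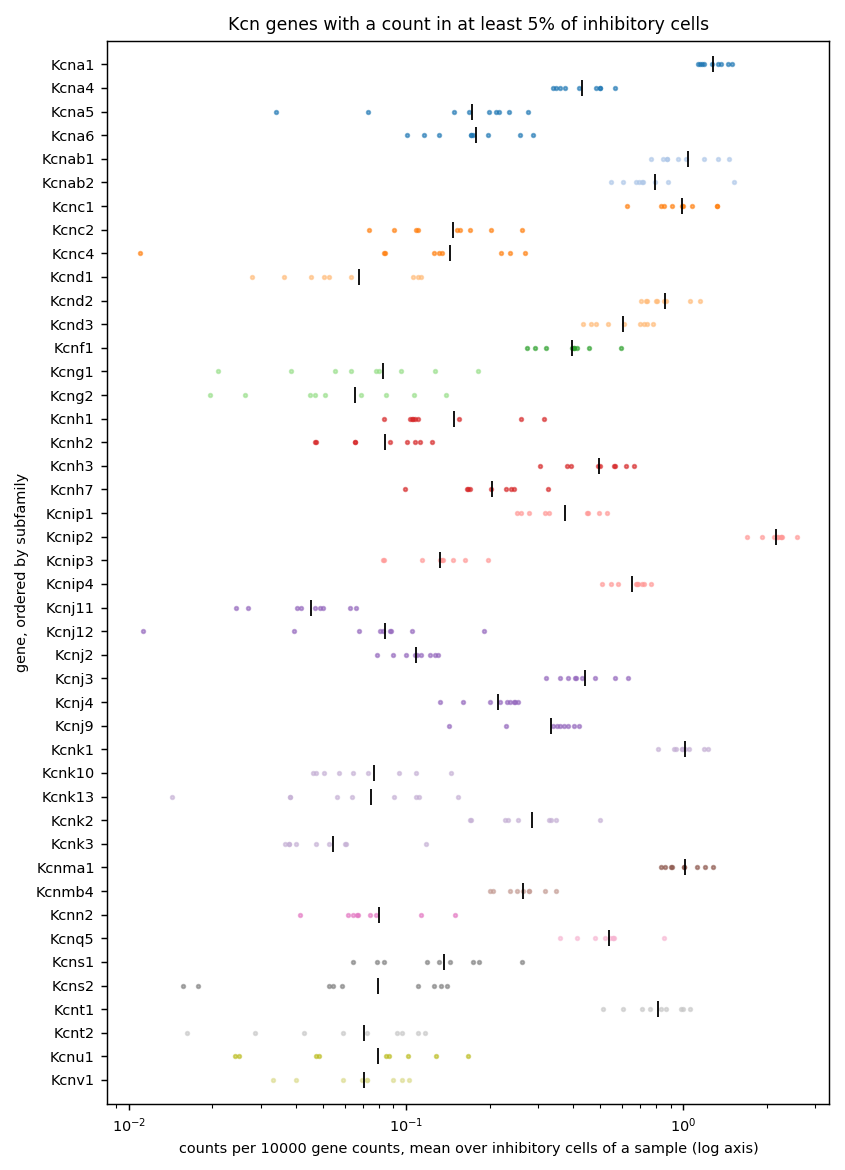
Level of 44 Kcn genes with a count in at least 5% of inhibitory cells, in counts per 10000 gene counts on a log axis. Each dot is the mean over the inhibitory cells of 1 of 9 samples and the bar is the mean of the samples. Kcnip2 lies to the right of the axis value 1 in every sample, while low genes such as Kcnc4 spread widely between samples.

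Prkcd-positive cells had more Kcnip2, Kcnq5, Kcna1 and Kcnk1 and less of many other potassium channel genes than Prkcd-negative cells. Of 52 genes that passed the filter on low counts, 5 were higher (9.62%) and 15 lower (28.8%) at a Benjamini-Hochberg adjusted p under 0.05 in edgeR's quasi-likelihood test on counts summed per sample and class, with the sample as a block. Over all 11487 genes tested, 7.6% were higher and 9.74% lower, and 17.3% passed in either direction. The median log2 fold change was -0.65 over the potassium channel genes and -0.02 over all genes. Levels given below are means over the cells of a sample, while fold changes come from the fit on summed counts, in which deeper cells weigh more, so the 2 can differ. The lower genes were voltage-gated, silent and leak channel subunits, the inward rectifier Kcnj3 and the auxiliary Kcnab2.

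Among the auxiliary subunits, Kcnip2 had a lowest, median and highest sample of 2.0, 2.91 and 3.86 counts per 10000 in Prkcd-positive cells, against 1.24, 1.59 and 1.85 in Prkcd-negative cells. The classes did not overlap. Its log2 fold change was 0.90 ± 0.08 (SE; edgeR adjusted p = 5.96e-06), and it was higher in 9 of 9 samples. Kcnd2, the A-type channel subunit that Kcnip2 proteins bind, went the other way, with samples of 0.264, 0.438 and 0.794 counts per 10000 in Prkcd-positive cells, against 0.839, 1.16 and 1.53 in Prkcd-negative cells. Again no sample of one class reached the other. The log2 fold change of Kcnd2 was -1.20 ± 0.19 (edgeR adjusted p = 0.00063). Its relative Kcnd3 averaged 0.676 ± 0.199 in Prkcd-positive cells and 0.553 ± 0.150 in Prkcd-negative cells and did not pass (log2 fold change 0.37 ± 0.13, edgeR adjusted p = 0.0681).

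The M-type subunit gene Kcnq5 was higher. It averaged 0.736 ± 0.310 counts per 10000 in Prkcd-positive cells and 0.395 ± 0.109 in Prkcd-negative cells (log2 fold change 0.91 ± 0.22, edgeR adjusted p = 0.0114), with 7 of 9 samples higher. Within the animal numbers of the deposited cell table, the log2 ratio of Kcnq5 was 0.16, 1.22 and 1.17, so animal number 1 showed little of it.

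Of the ether-a-go-go family (Kcnh), 2 of 5 members tested were lower in Prkcd-positive cells and 0 higher, against 9.74% lower and 7.6% higher over all genes tested. With so few members this is no trait of the family. Kcnh7, an erg-type channel, had samples of 0.0279, 0.048 and 0.174 counts per 10000 in Prkcd-positive cells, against 0.113, 0.305 and 0.489 in Prkcd-negative cells, and it was lower in 9 of 9 samples. The ranges of the classes overlapped at their edges. Its log2 fold change was -2.27 ± 0.27 (edgeR adjusted p = 5.51e-05). Kcnh1 averaged 0.0228 ± 0.0408 in Prkcd-positive cells and 0.239 ± 0.0978 in Prkcd-negative cells, with no overlap (edgeR adjusted p = 0.00313). Summed over its 7 members, Kcnh1 and Kcnh7 included, Kcnh took 0.683 ± 0.243 per 10000 in Prkcd-positive cells and 1.19 ± 0.206 in Prkcd-negative cells. The sum was lower in 9 of 9 samples.

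Of the Kcnc channels, known for fast repolarization, Kcnc2 and Kcnc4 were lower in Prkcd-positive cells. Kcnc4 averaged 0.0230 ± 0.0199 counts per 10000 in Prkcd-positive cells and 0.225 ± 0.124 in Prkcd-negative cells (log2 fold change -3.15 ± 0.43, edgeR adjusted p = 0.000184). Kcnc2 averaged 0.0401 ± 0.0306 in Prkcd-positive cells and 0.226 ± 0.0970 in Prkcd-negative cells, with no overlap (log2 fold change -2.69 ± 0.58, edgeR adjusted p = 0.00485). The widely detected Kcnc1 did not pass (-0.23 ± 0.15, edgeR adjusted p = 0.344).

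Of the Kcna delayed rectifiers, Kcna6 was lower, with 0.0775 ± 0.0403 counts per 10000 in Prkcd-positive cells and 0.251 ± 0.0659 in Prkcd-negative cells (log2 fold change -1.69 ± 0.23, edgeR adjusted p = 0.000149). Its log2 ratio was -1.70, -1.69 and -1.68 within the 3 animal numbers. Kcna1 was higher, at 1.42 ± 0.221 in Prkcd-positive cells and 1.17 ± 0.203 in Prkcd-negative cells (0.39 ± 0.11, edgeR adjusted p = 0.0275), in 6 of 9 samples by summed counts. Tandem-pore genes went both ways: Kcnk1 averaged 1.14 ± 0.155 in Prkcd-positive cells and 0.909 ± 0.209 in Prkcd-negative cells (0.34 ± 0.10, edgeR adjusted p = 0.0383), while Kcnk2, a mechanically and lipid gated leak channel, averaged 0.175 ± 0.116 in Prkcd-positive cells and 0.357 ± 0.145 in Prkcd-negative cells (-1.35 ± 0.33, edgeR adjusted p = 0.0121). The Kcnk1 call was lost on leaving out any single sample other than sample 5, with edgeR adjusted p of 0.0506 to 0.101, and the Kcna1 call without sample 1, 2, 3, 5, 8 or 9 (0.0510 to 0.0827).

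The silent subunits, which form no channel alone and modify other voltage-gated channels, also held genes that were lower. Kcng1 averaged 0.0122 ± 0.0268 counts per 10000 in Prkcd-positive cells and 0.136 ± 0.0749 in Prkcd-negative cells (edgeR adjusted p = 0.00448), and Kcns2 averaged 0.0292 ± 0.0391 in Prkcd-positive cells and 0.116 ± 0.0698 in Prkcd-negative cells (edgeR adjusted p = 0.00728). Kcnk3, an acid-sensitive leak channel, averaged 0.0154 ± 0.0259 in Prkcd-positive cells and 0.0836 ± 0.0386 in Prkcd-negative cells (edgeR adjusted p = 0.0109). Kcnj3, a G-protein-gated inward rectifier, averaged 0.354 ± 0.0900 in Prkcd-positive cells and 0.516 ± 0.153 in Prkcd-negative cells (-0.54 ± 0.16, edgeR adjusted p = 0.0356), a call lost without sample 1, 2, 3, 8 or 9 (0.0577 to 0.0899). Kcnf1 and Kcnab2 also passed and are named here after their values were seen (-1.34 ± 0.32 and -0.68 ± 0.17, edgeR adjusted p of 0.0104 and 0.0142). Kcnma1 (-0.10 ± 0.13), Kcnt1 (-0.06 ± 0.17), Kcnab1 (0.16 ± 0.14), Kcnip4 (0.15 ± 0.19) and Kcnj9 (-0.42 ± 0.29) did not pass, with edgeR adjusted p of 0.386 to 0.863.

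**Figure D2:**
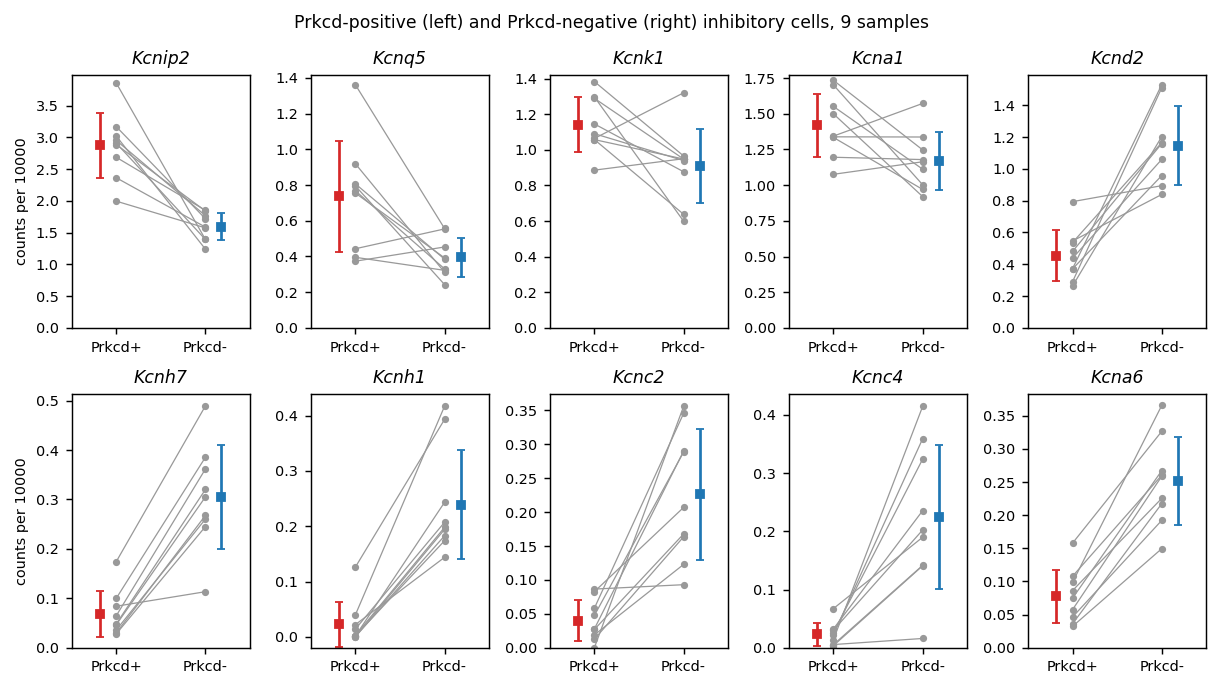
Potassium channel genes in Prkcd-positive (left) and Prkcd-negative (right) inhibitory cells, in mean counts per 10000 on axes that differ between panels. Grey lines join the classes of 1 sample, and squares with bars are the mean and SD of 9 samples; Kcnip2 climbs to the left in every sample and Kcnd2 and Kcnh7 fall to the left in every sample.

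Other features moved with the Prkcd classes. The summed level of 4 general neuron genes (Snap25, Rbfox3, Stmn2 and Nefl) was 15.1 to 22.5 per 10000 in Prkcd-positive cells and 23.6 to 39.2 in Prkcd-negative cells, lower in 9 of 9 samples, and the myelin gene Mbp was positive in 31.1% of Prkcd-positive and 22.6% of Prkcd-negative cells. All 7 oligodendrocyte markers had counts in both classes, with a summed level of 1.39 to 2.38 in Prkcd-positive cells and 0.734 to 24.1 in Prkcd-negative cells, higher in Prkcd-positive cells in 8 of 9 samples. The 24.1 is sample 5, and the next highest Prkcd-negative value was 1.24. The part of these in the potassium channel differences was not tested. Without the Mbp-positive cells 11 genes passed in place of 20: Kcnip2, Kcnd2, Kcnh1, Kcnh7, Kcnc2, Kcnc4, Kcna6, Kcng1, Kcnf1, Kcnk2 and Kcnk3. Of the higher genes named above this left Kcnip2. The edgeR adjusted p became 0.0602 for Kcnq5, 0.0920 for Kcna1 and 0.166 for Kcnk1. With Sst-positive cells left out of both classes (320 and 342 cells, a choice made after seeing the data) 4 of 50 genes were higher and 16 lower, against 16.8% of all genes in either direction, and Kcnk1 and Kcnj3 no longer passed (edgeR adjusted p of 0.0663 and 0.177).

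Prkcd-positive Sst-negative cells (320) were next set directly against Sst-positive Prkcd-negative cells (125), leaving out 23 double-positive cells. Kcnh7, Kcna6, Kcnd2 and 6 other genes were lower in the Prkcd cells. Of 42 potassium channel genes tested, 0 were higher and 9 lower (21.4%), against 4.38% higher, 4.06% lower and 8.43% in either direction over all 10398 genes. Kcnh7 had samples of 0.00689, 0.031 and 0.139 counts per 10000 (lowest, median, highest) in Prkcd-positive cells, against 0.167, 0.518 and 0.667 in Sst-positive cells. Every Sst-positive value lay above every Prkcd-positive one, and the log2 fold change was -3.49 ± 0.48 (edgeR adjusted p = 0.000265). Kcna6 likewise did not overlap, at 0.0747 ± 0.0367 in Prkcd-positive cells and 0.284 ± 0.0769 in Sst-positive cells (-1.84 ± 0.44, edgeR adjusted p = 0.0168).

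Kcnmb4, the neuronal accessory subunit of the Kcnma1 channel, was lower as well, at 0.135 ± 0.0854 counts per 10000 in Prkcd-positive cells and 0.626 ± 0.267 in Sst-positive cells (-1.94 ± 0.57, edgeR adjusted p = 0.048). The other genes that passed were Kcng1 (-6.00 ± 1.38), Kcnh1 (-4.03 ± 1.12), Kcnc2 (-3.95 ± 0.97), Kcnd2 (-1.32 ± 0.33), Kcnab2 (-0.87 ± 0.25) and, named after its value was seen, Kcnf1 (-1.82 ± 0.48), with edgeR adjusted p of 0.0146 to 0.0402. The fitted folds of the lowest genes depended on the fit: without the sample block Kcng1 was at -3.79 and Kcnh1 at -2.42, where Kcnh1 did not pass (edgeR adjusted p = 0.148), and with limma Kcng1 was at -2.78 and Kcnh1 at -2.94. Kcnab2 and Kcnf1 did not pass in limma (limma adjusted p of 0.0957 and 0.0761). Kcnip1, another Kcnd-binding protein, was higher in 9 of 9 samples at 0.456 ± 0.201 in Prkcd-positive cells and 0.0961 ± 0.0983 in Sst-positive cells, yet did not pass (2.55 ± 0.86, edgeR adjusted p = 0.0916). Likewise Kcnq5 (1.41 ± 0.43, edgeR adjusted p = 0.0574) and Kcnd3 (0.84 ± 0.26, edgeR adjusted p = 0.0637) did not pass. All 3 passed in DESeq2 (adjusted p of 0.00144 for Kcnip1, 0.00412 for Kcnq5 and 0.0145 for Kcnd3). The number of genes passing was 2 without sample 2, 4 without sample 6 and 5 without sample 7, and 2 with equal cell numbers in the classes of each sample (Kcnc2 and Kcnh7). Leaving out Mbp-positive cells (94 Prkcd-positive and 38 Sst-positive) left 8 samples in the fit, and 0 of the 9 calls passed. Kcng1 was not tested, and the edgeR adjusted p of the others was 0.0763 to 0.393. Their log2 fold changes ran from -4.91 for Kcnh1 to -0.65 for Kcnab2, with Kcnh7 at -3.33 ± 1.12. The 2 genes that passed there, Kcnip1 and Kcnip2, are not among the 9. On leaving out 1 sample, single calls were lost in 7 of 9 fits for Kcnmb4 (without sample 1, 2, 4, 6, 7, 8 or 9, edgeR adjusted p of 0.0627 to 0.114), in 6 for Kcnab2 (2, 3, 6, 7, 8 or 9, 0.0661 to 0.0995), in 6 for Kcnf1 (1, 2, 3, 5, 7 or 9, 0.0528 to 0.0786), in 5 for Kcnh1 (1, 2, 5, 6 or 7, 0.0768 to 0.0990), in 4 for Kcnd2 (2, 3, 4 or 6, 0.0511 to 0.0583) and in 1 for Kcnc2 (sample 2, 0.0510). Kcng1 was tested in only 7 of the 9 fits and passed in those. It was also not tested with equal cell numbers, thinned cells or positive at 3 per 10000. The general neuron list was 14.2 to 21.6 per 10000 in Prkcd-positive cells and 24.7 to 38.8 in Sst-positive cells, and the oligodendrocyte list was 1.28 to 2.46 in Prkcd-positive cells and 0.356 to 1.73 in Sst-positive cells, higher in Prkcd-positive cells in 9 of 9 samples. In Sst-positive cells the myelin gene Mog was at 0. The part of these lists was not tested.

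Sst-positive cells had more Kcna5 and Kcnh7 and less Kcnt2 than Sst-negative cells. The test gave 2 genes higher and 1 lower of 51 tested (5.88%), against 4.53% of all 11355 genes (2.26% in each direction), a share near the background. Kcna5, a delayed rectifier, had samples of 0.0821, 0.493 and 0.538 counts per 10000 in Sst-positive cells, against 0.0240, 0.120 and 0.219 in Sst-negative cells. It was higher in 9 of 9 samples, although the lowest Sst-positive sample lay within the Sst-negative range (log2 fold change 1.76 ± 0.33, edgeR adjusted p = 0.00795). Kcnh7 averaged 0.468 ± 0.204 in Sst-positive cells and 0.137 ± 0.0582 in Sst-negative cells (1.58 ± 0.32, edgeR adjusted p = 0.0127). Kcnt2, a sodium-activated channel gene, averaged 0.00983 ± 0.0155 in Sst-positive cells and 0.0836 ± 0.0423 in Sst-negative cells (-3.90 ± 0.91, edgeR adjusted p = 0.0258), a call lost without sample 1, 2, 3, 6 or 8 (0.0508 to 0.0656) and without the sample block (-2.56, edgeR adjusted p = 0.0756). Kcnmb4 averaged 0.555 ± 0.249 in Sst-positive cells and 0.195 ± 0.0494 in Sst-negative cells, higher in 8 of 9 samples, and did not pass (0.96 ± 0.34, edgeR adjusted p = 0.148). Kcnip1 was lower in 9 of 9 samples at 0.0947 ± 0.102 in Sst-positive cells and 0.437 ± 0.123 in Sst-negative cells and did not pass either (-2.62 ± 0.83, edgeR adjusted p = 0.106). Both passed in DESeq2 (adjusted p of 0.0202 for Kcnmb4 and 0.0139 for Kcnip1). The general neuron list was 25.4 to 38.5 per 10000 in Sst-positive cells and 18.5 to 28.8 in Sst-negative cells, higher in 9 of 9 samples, and its part was not tested. There were 5 calls without sample 7 and 0 with equal cell numbers. Without Mbp-positive cells Kcna5 and Kcnh7 no longer passed (edgeR adjusted p of 0.169 and 0.236) and Kcnt2 was not tested, and the 1 gene that passed was Kcnip1.

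Cartpt-positive cells had more Kcnip2 and less Kcnk2, Kcna6, Kcnd2, Kcnab2 and Kcnv1 than Cartpt-negative cells, 1 gene higher and 5 lower of 50 tested (12.0%), against 7.42% of all 11545 genes (3.57% higher and 3.85% lower). Kcnip2 averaged 2.81 ± 0.737 counts per 10000 in Cartpt-positive cells and 1.87 ± 0.180 in Cartpt-negative cells and was higher in 9 of 9 samples (log2 fold change 0.55 ± 0.09, edgeR adjusted p = 0.00116). Kcnk2 had samples of 0.0228, 0.129 and 0.206 in Cartpt-positive cells, against 0.231, 0.329 and 0.646 in Cartpt-negative cells. These did not overlap (-1.65 ± 0.29, edgeR adjusted p = 0.00323). Kcna6 (-1.81 ± 0.44), Kcnd2 (-0.92 ± 0.24), Kcnab2 (-0.80 ± 0.18) and Kcnv1, a silent subunit (-3.62 ± 0.93), were lower with edgeR adjusted p of 0.0169 to 0.0355. The call was lost for Kcnd2 without sample 2, 3, 4, 5, 6 or 7 (0.0673 to 0.0830), for Kcnv1 without sample 2, 3, 4, 5, 6, 8 or 9 (0.0515 to 0.0664) and for Kcna6 without sample 7 or 9 (0.0513 and 0.0535). The general neuron list was 14.7 to 25.7 per 10000 in Cartpt-positive cells and 21.6 to 33.3 in Cartpt-negative cells, and its part was not tested. Without the sample block Kcnv1 was at -2.25 and did not pass (edgeR adjusted p = 0.0958). Without Mbp-positive cells Kcnip2 and Kcnab2 passed and the other 4 did not (edgeR adjusted p of 0.0554 to 0.127). With all cells kept, DESeq2 called 25 potassium channel genes, and its share over all genes is not given here.

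Within the Prkcd-positive cells, 204 Cartpt-positive cells were set against 139 Cartpt-negative cells, which holds the Prkcd class constant. Of 35 potassium channel genes 0 passed edgeR's test, against 0.625% of all 9919 genes (0.413% higher and 0.212% lower), and 4 had an unadjusted p under 0.05. DESeq2 called 2 potassium channel genes, and its share over all genes is not given here. Kcnk2 averaged 0.0754 ± 0.0668 counts per 10000 in Cartpt-positive cells and 0.310 ± 0.248 in Cartpt-negative cells and was lower in 9 of 9 samples by summed counts, without passing (-2.03 ± 0.66, edgeR adjusted p = 0.284). Kcnip2 averaged 3.11 ± 0.722 in Cartpt-positive cells and 2.52 ± 0.558 in Cartpt-negative cells (0.22 ± 0.12, edgeR adjusted p = 0.676). The fold changes of Kcna6 (-1.45 ± 0.94) and Kcnd2 (-0.96 ± 0.56) did not pass either. The general neuron list was 13.5 to 20.4 per 10000 in these Cartpt-positive cells and 16.1 to 26.0 in the Cartpt-negative cells, higher in 0 of 9 samples. Sst was positive in 1.84% and 13.2% of them (mean over samples). The part of both was not tested.

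Isl1-positive cells had less Kcna1 and Kcnip2 than Isl1-negative cells, with 0 genes higher and 2 lower of 50 tested (4%), against 4.85% of all 11169 genes (1.7% higher and 3.15% lower), a share near the background. The median log2 fold change was -0.35 over the potassium channel genes and -0.34 over all genes. Kcna1 had samples of 0.0784, 0.503 and 1.07 counts per 10000 in Isl1-positive cells, against 1.20, 1.35 and 1.58 in Isl1-negative cells. The classes were apart in all samples (-1.50 ± 0.33, edgeR adjusted p = 0.0159). Kcnip2 averaged 1.12 ± 0.839 in Isl1-positive cells and 2.25 ± 0.269 in Isl1-negative cells (-1.30 ± 0.33, edgeR adjusted p = 0.0346), a call lost without sample 2, 3, 4, 6 or 7 (0.0602 to 0.0831). The summed Kcnc level was 2.15 ± 0.501 in Isl1-positive cells and 1.28 ± 0.317 in Isl1-negative cells, higher in 9 of 9 samples. None of its members passed singly, with Kcnc4 at 1.62 ± 0.57 and Kcnc1 at 0.49 ± 0.18 (edgeR adjusted p of 0.127 and 0.139). Kcnq5 averaged 0.213 ± 0.213 in Isl1-positive cells and 0.572 ± 0.147 in Isl1-negative cells and did not pass (-1.83 ± 0.58, edgeR adjusted p = 0.0871). Isl1-positive cells had more counts per cell (median 169576, against 123695 in Isl1-negative cells) and a general neuron list of 32.4 to 46.0 per 10000, against 18.6 to 29.3 in Isl1-negative cells, and the part of both was not tested. With equal cell numbers 0 genes passed. Without Mbp-positive cells neither Kcna1 nor Kcnip2 passed (edgeR adjusted p of 0.0523 and 0.0615), and the 1 gene that did, Kcnj2, is named after its value was seen.

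Nr2f2-positive cells had less Kcnd2 and Kcnh1 than Nr2f2-negative cells, with 0 genes higher and 2 lower of 49 tested (4.08%), against 1.69% of all 11008 genes (0.409% higher and 1.28% lower). Kcnd2 had samples of 0.118, 0.333 and 0.737 counts per 10000 in Nr2f2-positive cells, against 0.791, 0.860 and 1.33 in Nr2f2-negative cells. No values overlapped (log2 fold change -1.42 ± 0.31, edgeR adjusted p = 0.0359). The call was lost without sample 1, 2, 3, 5, 6, 7 or 8 (0.0562 to 0.0887). Kcnh1 was listed at 0 in 7 of 9 Nr2f2-positive samples and at 0.0101 and 0.393 in samples 6 and 9, against 0.0946 to 0.368 in Nr2f2-negative cells. Its fitted log2 fold change of -5.90 ± 1.23 (edgeR adjusted p = 0.0286) was -1.95 without the sample block, where it did not pass (edgeR adjusted p = 0.578). The call was also lost without sample 1, 2, 3, 4, 5, 7 or 8 (0.0570 to 0.0722). The sum of all 80 genes was 18.2 ± 1.75 in Nr2f2-positive cells and 20.9 ± 1.08 in Nr2f2-negative cells, lower in 9 of 9 samples. The general neuron list was 14.1 to 25.3 in Nr2f2-positive cells and 21.0 to 32.1 in Nr2f2-negative cells, and its part was not tested. With equal cell numbers, or without Mbp-positive cells (8 samples entered), 0 genes passed.

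Foxp1-positive cells showed no potassium channel gene past the threshold in edgeR. It called 0 of 49, against 0.229% of all 11332 genes (0.176% higher and 0.0529% lower), and 3 had an unadjusted p under 0.05. DESeq2 called 4 potassium channel genes, and its share over all genes is not given here. Kcna1 averaged 1.57 ± 0.325 counts per 10000 in Foxp1-positive cells and 1.23 ± 0.192 in Foxp1-negative cells (0.41 ± 0.14, edgeR adjusted p = 0.347). Kcnd2 averaged 1.06 ± 0.318 in Foxp1-positive cells and 0.795 ± 0.148 in Foxp1-negative cells (0.40 ± 0.19, edgeR adjusted p = 0.510). The sum of all 80 genes was 21.5 ± 1.68 in Foxp1-positive cells and 20.2 ± 0.928 in Foxp1-negative cells, higher in 7 of 9 samples.

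**Figure D3:**
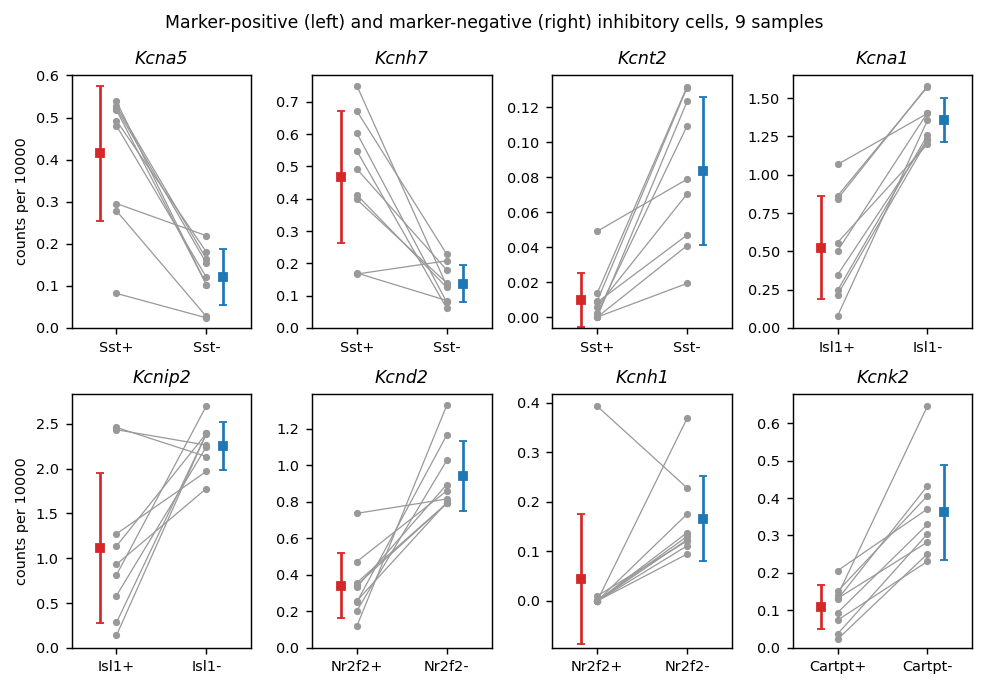
Potassium channel genes in marker-positive (left) and marker-negative (right) inhibitory cells for markers other than Prkcd, in mean counts per 10000 on axes that differ between panels. Grey lines join the classes of 1 sample and squares with bars are the mean and SD of 9 samples; Kcna5 is higher in the Sst-positive class in all 9 samples and Kcna1 lower in the Isl1-positive class in all 9.

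Across the 8 comparisons, 24 of the 80 genes passed in at least 1 and 56 in none, of which 27 were too low to be tested in any. The comparisons share cells, so they are not independent of each other. Kcnd2 passed in 4 comparisons, at log2 fold changes of -1.20 for Prkcd, -0.92 for Cartpt, -1.42 for Nr2f2 and -1.32 for Prkcd against Sst. Kcnip2 passed in 3, at 0.90 for Prkcd, 0.55 for Cartpt and -1.30 for Isl1. Kcnh7 was at -2.27 for Prkcd, 1.58 for Sst and -3.49 for Prkcd against Sst. Of the 42 calls, 39 had the same sign within each of the 3 animal numbers and 3 date fields. The exceptions include Kcng1 for Prkcd against Sst, where a class had 0 counts in some of them, and Kcnh1 for Nr2f2, at 0.14 within animal number 3.

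**Figure D4:**
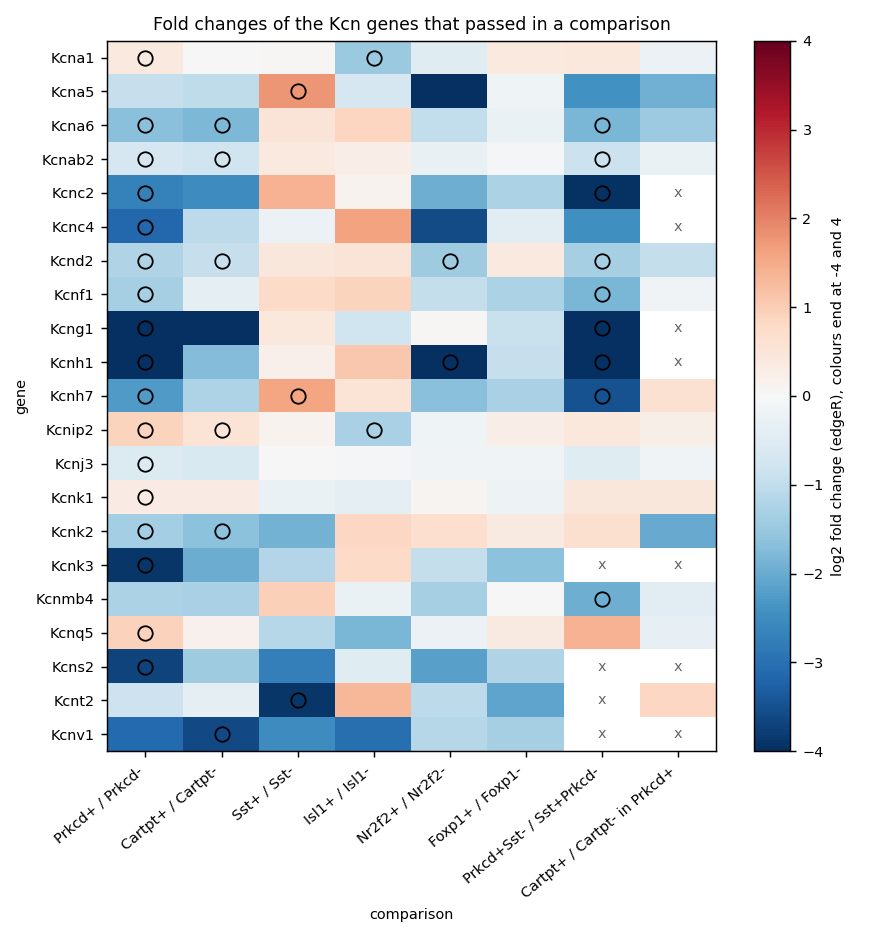
Log2 fold change (edgeR) of 21 Kcn genes that passed in at least 1 comparison, with genes down the page and the 8 comparisons across; red is higher in the first-named class. Circles mark the genes that passed and crosses those not tested; the Prkcd column holds 17 circles and the Foxp1 column 0.

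**Figure D5:**
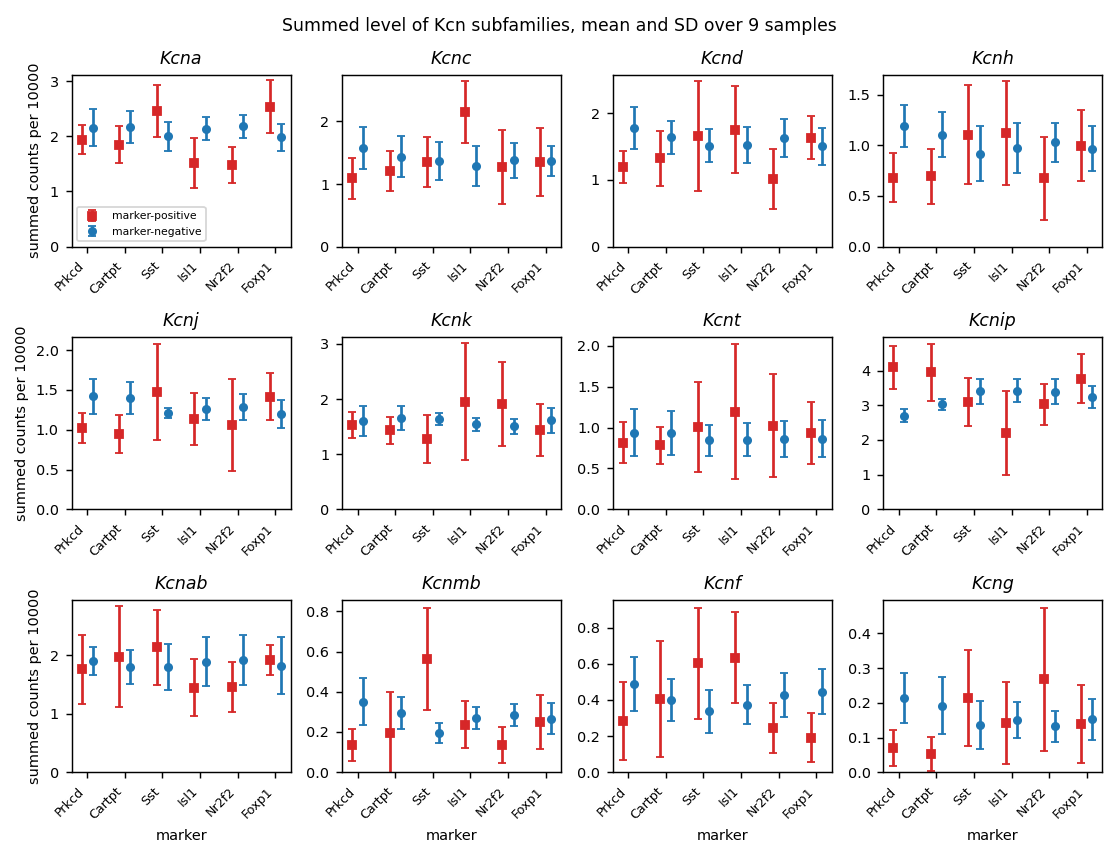
Summed counts per 10000 of Kcn subfamilies in marker-positive (red squares) and marker-negative (blue circles) inhibitory cells for 6 markers, as mean and SD over 9 samples. The Kcnip sum is higher in Prkcd-positive cells in 9 of 9 samples and the Kcnc sum in Isl1-positive cells in 9 of 9.

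By subfamily, the summed levels also differed between the Prkcd classes. Kcnip took 4.09 ± 0.625 counts per 10000 in Prkcd-positive cells and 2.70 ± 0.197 in Prkcd-negative cells, higher in 9 of 9 samples. Kcnd took 1.20 ± 0.237 in Prkcd-positive cells and 1.77 ± 0.314 in Prkcd-negative cells and was higher in 1. These sums were not tested.

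A list of 30 partner genes outside the family was counted for the same cells, and 29 were in the table. It held channel auxiliary subunits, scaffolds, G-protein regulators, the receptor genes Gabbr1 and Gabbr2, and others such as the Lgi and Adam genes, Vapa, Vapb and Cnih2. In Prkcd-positive cells 1 of 25 tested was higher and 7 lower, against 7.6% higher and 9.74% lower over all genes. Gnb5, a G-protein beta subunit that pairs with RGS proteins at inward rectifiers, averaged 0.553 ± 0.254 counts per 10000 in Prkcd-positive cells and 2.24 ± 0.413 in Prkcd-negative cells (-1.92 ± 0.17, edgeR adjusted p = 4.53e-06). Rgs4, a regulator of G-protein signalling, averaged 5.94 ± 0.585 in Prkcd-positive cells and 2.81 ± 0.426 in Prkcd-negative cells (1.24 ± 0.07, edgeR adjusted p = 9.54e-08). Dpp6, the transmembrane auxiliary subunit of the Kcnd channels, fell with Kcnd2, at 0.961 ± 0.202 in Prkcd-positive cells and 1.49 ± 0.128 in Prkcd-negative cells (-0.63 ± 0.12, edgeR adjusted p = 0.00195). Adam23, Lgi2, Lgi3, Dlg1 and Rgs7bp were the other genes lower. In Sst-positive cells 4 of 25 were higher and 0 lower, against 2.26% of all genes in each direction, among them Lgi2, a secreted relative of the Kcna-associated Lgi1, at 1.01 ± 0.391 in Sst-positive cells and 0.154 ± 0.0553 in Sst-negative cells (2.56 ± 0.33, edgeR adjusted p = 0.000504). In Isl1-positive cells Rgs4 alone of 25 passed, against 3.15% of all genes lower, at 1.31 ± 0.336, against 4.41 ± 0.518 in Isl1-negative cells (-1.65 ± 0.14, edgeR adjusted p = 1.72e-05). Cartpt-positive cells had 1 higher and 6 lower of 25, against 3.57% and 3.85% of all genes, and Nr2f2-positive and Foxp1-positive cells had 0 of 25 in edgeR.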

How the data were processed

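Counts were deposited by the authors as unnormalized whole counts for each cell and gene symbol, in 1 table with a second table that gives each cell's animal number and date field; the cells of 3 animal numbers and 3 date fields form the 9 samples. Per the submitters' processing notes, build NCBIM37 and Seurat were used, in roles not stated. The aligner, annotation, strand and any molecular identifiers are not given in those notes or the labels.

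ERCC spike-ins (91) were dropped. Levels are counts per 10000 of a cell's gene counts. No cell was removed for low counts or as a doublet, and no doublet caller was run. Counts were summed per sample and class, with at least 5 cells in each, and tested in edgeR 4.0.16 (R 4.3.3) by its quasi-likelihood test with the sample as a block, TMM scaling and the filterByExpr filter, with Benjamini-Hochberg adjustment over all genes tested and a threshold of 0.05. No block could pair groups of the labels, which give 1 group; the sample block pairs 2 classes of the same sample. Alternatives were DESeq2 1.42.0, median-of-ratios scaling in edgeR, no filter, no block, positive at 3 per 10000, cells thinned to 50000 counts (788 kept), mean CPM per cell with limma 3.58.1 (log2 of CPM + 1, genes at a mean of 1 CPM or more), equal cell numbers (seed 7), leaving out Mbp-positive cells, cells under 20000 counts (9) or each sample and, added after seeing the data, Sst-positive cells. Levels were computed in Python 3.11.15 with pandas 2.3.3, and promoter windows came from RefSeq.

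Genes named in a comparison are up to 10 a side with the largest fold among those past the threshold that reached a mean of 5 CPM in the higher class and moved the same way in at least 8 of 9 samples, with 30 genes named whatever their result, of which 29 were in the table. A few genes that met this rule are not reported here. The genes and lists were chosen with earlier results of these data known. Tested on simulated counts, the fit recovered 44% of 2-fold and 67% of 4-fold changes for Prkcd (11487 genes, 2 false calls), and 29% and 47% for Isl1 (11169 genes, 1 false call). For Cartpt within Prkcd-positive cells it recovered 25% and 61%. There were 5 false calls each for Cartpt, Sst and Nr2f2. The simulated samples differed only in library size, and the classes only in 100 changed genes per fold, so real data may behave otherwise. Samples held 8522750 to 22730327 gene counts over all their cells. Class levels are means over fewer cells, down to 6 Isl1-positive cells in a sample, and their counting error was not estimated.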

Additional observations from a re-analysis of the deposited data

Results flagged for a closer look

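Some values had 1 sample far from the other 8, by the gap to its nearest neighbour relative to the whole range. Of 26 genes checked over all inhibitory cells 2 had such a sample, and of 84 class values of genes that passed 20 did. Chance gives about 1 in 20 for independent values. These classes share cells and some values lie at or near 0, so the counts cannot be set against that rate. Over all inhibitory cells, Kcnk9 was at 0.00986 counts per 10000 in sample 4 (others 0 to 0.00154) and Kcnq5 at 0.852 in sample 5 (others 0.359 to 0.562).

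Sample 9 stood apart most often. Kcnab2, a cytoplasmic beta subunit, was there at 1.93 in Prkcd-positive cells (others 0.248 to 0.816), at 1.24 in Prkcd-negative cells (others 0.666 to 0.952), at 2.56 in Cartpt-positive cells (others 0.250 to 0.870) and at 1.99 in Prkcd-positive Sst-negative cells (others 0.245 to 0.699). Kcnf1 was there at 0.798 in Prkcd-positive cells (others 0.0360 to 0.378) and at 0.847 in Prkcd-positive Sst-negative cells (others 0.0320 to 0.402). Kcnh1 was there at 0.393 in Nr2f2-positive cells (others 0 to 0.0101).

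In sample 4, Kcnh1 was at 0.126 in Prkcd-positive cells (others 0 to 0.0392), at 0.126 in Prkcd-positive Sst-negative cells (others 0 to 0.0415) and at 0.368 in Nr2f2-negative cells (others 0.0946 to 0.228). In sample 6, Kcng1 was at 0.0816 in Prkcd-positive cells (others 0 to 0.0192) and at 0.0914 in Prkcd-positive Sst-negative cells (others 0 to 0.00963), and Kcnk2 was at 0.646 in Cartpt-negative cells (others 0.231 to 0.432). In sample 2, Kcnh7 was at 0.174 (others 0.0279 to 0.0997) and Kcnc4 at 0.0673 (others 0.00366 to 0.0324) in Prkcd-positive cells. In sample 1, Kcna6 was at 0.188 in Cartpt-positive cells (others 0.00932 to 0.0849) and Kcnd2 at 0.892 in Prkcd-positive Sst-negative cells (others 0.289 to 0.556). Kcnip2 was at 4.45 in Cartpt-positive cells of sample 7 (others 1.94 to 3.01), Kcnt2 at 0.0490 in Sst-positive cells of sample 5 (others 0 to 0.0137) and Kcng1 at 0.640 in Sst-positive Prkcd-negative cells of sample 3 (others 0 to 0.255).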

How the results depend on the processing

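The number of potassium channel genes that passed depended most on the tool and on the cells kept, and the cause was not tested. For the alternatives below, the share of all genes that passed is not given here. These counts therefore cannot be told apart from a fit that calls more or fewer genes of every kind. DESeq2 called 25 for Cartpt in place of 6, 16 for Sst in place of 3, 13 for Isl1 and 10 for Nr2f2 in place of 2 each, 4 for Foxp1 and 2 for Cartpt within Prkcd-positive cells in place of 0, and 18 for Prkcd against Sst in place of 9. Mean CPM with limma called 13 for Cartpt, 6 for Sst, 7 for Isl1, 6 for Nr2f2 and 2 for Foxp1. Equal cell numbers, which also use fewer cells, gave 13 for Prkcd in place of 20, 2 for Prkcd against Sst, and 0 for Sst, Isl1 and Nr2f2. Leaving out Mbp-positive cells also used fewer cells, with 8 samples for Nr2f2, Foxp1 and Prkcd against Sst. There 11 genes passed for Prkcd and 2 for Cartpt, all of them among the calls above. A further 1 passed for Sst, 1 for Isl1, 0 for Nr2f2 and 2 for Prkcd against Sst, of which 0 were among those calls. At 3 per 10000, 0 passed for Isl1 (2 samples entered) and 0 for Nr2f2 (6 samples), and the summed level of all Kcn genes in Isl1-positive minus Isl1-negative cells turned to 2.61 per 10000, against -0.67. Thinning gave 4 for Isl1, and no filter 1 for Foxp1. Without the replicate block 1 gene passed for Nr2f2 in place of 2, and 20 for Prkcd as with it. Leaving out 1 sample gave 16 to 20 calls for Prkcd, 4 to 7 for Cartpt, 2 to 5 for Sst, 1 to 3 for Isl1, 0 to 2 for Nr2f2, 0 to 1 for Foxp1 and 2 to 8 for Prkcd against Sst. Of the 42 calls, 0 changed sign under any alternative that gave a value; 42 passed under DESeq2 and under median-of-ratios scaling, 35 without the block, 19 of 38 with equal cell numbers and 13 of 39 without Mbp-positive cells. Among genes named that had not passed, Kcnip4 for Prkcd turned to -0.068 without Mbp-positive cells, and Kcnt1 for Prkcd ran from -0.11 to 0.11 over the fits without 1 sample, above 0 without sample 5; neither passed there. Without the block Kcnmb4 for Sst passed, as did Kcnq5 and Kcnd3 for Prkcd against Sst (edgeR adjusted p of 0.0340, 0.0251 and 0.0325). Genes at the lowest levels rest on few counts, and their fitted folds are no bounds.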

Other observations

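The oligodendrocyte list (7 genes) stood at 16.1 counts per 10000 over the inhibitory cells of sample 5, against 1.07 to 1.52 in the other samples, and 2 cells of sample 5 exceeded 100 per 10000. These 2 cells were inhibitory by the rule above and entered the classes compared. In sample 5 the list stood at 24.1 in Prkcd-negative cells. The part of the list and of these cells in the Kcn levels of sample 5 was not tested.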
